A study of Mus musculus with 24 samples.

Results

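The clustered protocadherins are adhesion molecules of the cell surface, made in mammals from 3 neighbouring gene clusters called Pcdha, Pcdhb and Pcdhg. Their levels are described here across 24 RNA sequencing libraries of a mouse pancreatic beta cell tumour line. The genes were chosen by name: every entry of the count table whose symbol begins with Pcdha, Pcdhb or Pcdhg and continues with a cluster member's name was kept, which gave 58 of 46517 entries. The family itself was selected because Pcdhb18 was already known to be higher when the miR-23b cluster was switched on. For that reason, the miR-23b cluster's induction, and every comparison that uses its libraries with or without doxycycline, is given as a description with no p-value. Of the 58 entries, 41 reached 1 CPM, a count scaled for library size with edgeR's TMM factors, as the mean of at least 1 of the 8 groups, and 36 did so in every group.

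Each clustered protocadherin has an extracellular part of cadherin repeats that binds the identical protein on a neighbouring cell. In the Pcdha and Pcdhg clusters, a large first exon with its own promoter is spliced to constant exons that all genes of the cluster share, while each Pcdhb gene is a single coding exon with no constant part. Neurons are known for choosing a few of these promoters in each cell, which gives cells different surface identities, and CTCF, cohesin and DNA methylation take part in that choice. The last genes of the Pcdha and Pcdhg clusters, called C-type (Pcdhac1, Pcdhac2, Pcdhgc3, Pcdhgc4 and Pcdhgc5), are less subject to that choice. Beta cells are endocrine cells that share much of their gene expression with neurons.

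The cells were betaTC3, a line from insulin-producing tumours of mice that carry the SV40 large T antigen under an insulin promoter. All groups carried the plasmid PB-31 with a doxycycline-inducible cassette: the control plasmid, the miR-23b cluster or miR-137. Each of the 3 lines was grown with no doxycycline (no DOX) or for 7 d with 2 µg/ml doxycycline (DOX). The miR-23b cluster and miR-137 lines were also taken through 7 d with doxycycline followed by 7 d without it (withdrawn). There is no withdrawn control line, and each of the 8 groups has 3 libraries of polyA RNA from wells plated in triplicate. No source used here says whether a line is 1 clone, and the labels name no date or batch. Gene counts ran from 15759849 to 24144737 per library. Because the RNA is from bulk cultures, more cells that express a gene and more RNA per cell cannot be told apart. The 8 beta cell markers examined were detected in every group, with a summed level between 10600 and 16140 CPM.

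Sequences of induced microRNAs are shown because their seeds, bases 2 to 8 from the 5′ end, set which messages they can pair with. The miR-23b cluster holds miR-23b, miR-27b and miR-24. The sequence of miR-23b-3p was not in the reference used, so it is not shown. In RefSeq (GRCm38.p6), mmu-miR-27b-3p lies at chr13:63300760-63300780 and mmu-miR-24-3p at chr13:63301251-63301272, both on the plus strand. On the plus strand of another chromosome, mmu-miR-137-3p lies at chr3:118433901-118433923. The seed is in capitals.
mmu-miR-27b-3p: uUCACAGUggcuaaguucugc
mmu-miR-24-3p: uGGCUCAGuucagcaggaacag
mmu-miR-137-3p: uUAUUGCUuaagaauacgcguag
The 3 seeds differ from each other, and none of these microRNAs shares its seed with another of the 3.

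The 3′ UTRs of the members were searched on the sense strand for the 7-base complement of each seed: ACTGTGA for miR-27b-3p, CTGAGCC for miR-24-3p and AGCAATA for miR-137-3p. Over 20939 genes with an annotated 3′ UTR (median length 939 bases), 15.85% hold the miR-27b-3p heptamer, 15.96% the miR-24-3p heptamer and 9.62% the miR-137-3p heptamer. The Pcdha genes end in 1 common 3′ UTR of 2401 bases, which has no match to any of the 3. The Pcdhg genes likewise share a 3′ UTR, of 1744 bases in most entries, and it has 1 match to miR-24-3p. Each Pcdhb gene has its own 3′ UTR: Pcdhb13 alone holds the miR-27b-3p heptamer, Pcdhb19 alone that of miR-24-3p, and Pcdhb16, Pcdhb18 and Pcdhb19 each hold 1 match to miR-137-3p. Matches to miR-23b-3p were not searched, so these values do not cover the whole miR-23b cluster. A match is a description of the letters, not a known site.

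Before any induction, the levels of the 58 entries ranged widely, with Pcdhgc3 and Pcdhgc4 the highest in each of the 3 lines. To compare genes of unequal length, CPM was divided by the kilobases of exon that a gene shares with no other entry. With no DOX, the C-type gene Pcdhgc3, which takes part in dendrite branching, was highest at 16.7 CPM per kb (mean of 3 lines). It was followed by Pcdhgc4, a gene known for neuronal survival, at 7.97 CPM per kb. The next were an entry named Pcdha11 (ENSMUSG00000007440) at 6.73, Pcdhga3 at 5.91, Pcdhga11 at 4.72 and Pcdhgb6 at 4.03 CPM per kb. Over all 24 libraries Pcdhgc3 held between 28.94 and 34.49% of the summed CPM of the Pcdhg cluster. Pcdhb18 was 38th in this order, with 0.409 CPM per kb, and Pcdhb4 was lowest at 0.0145 CPM per kb.

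**Figure D1:**
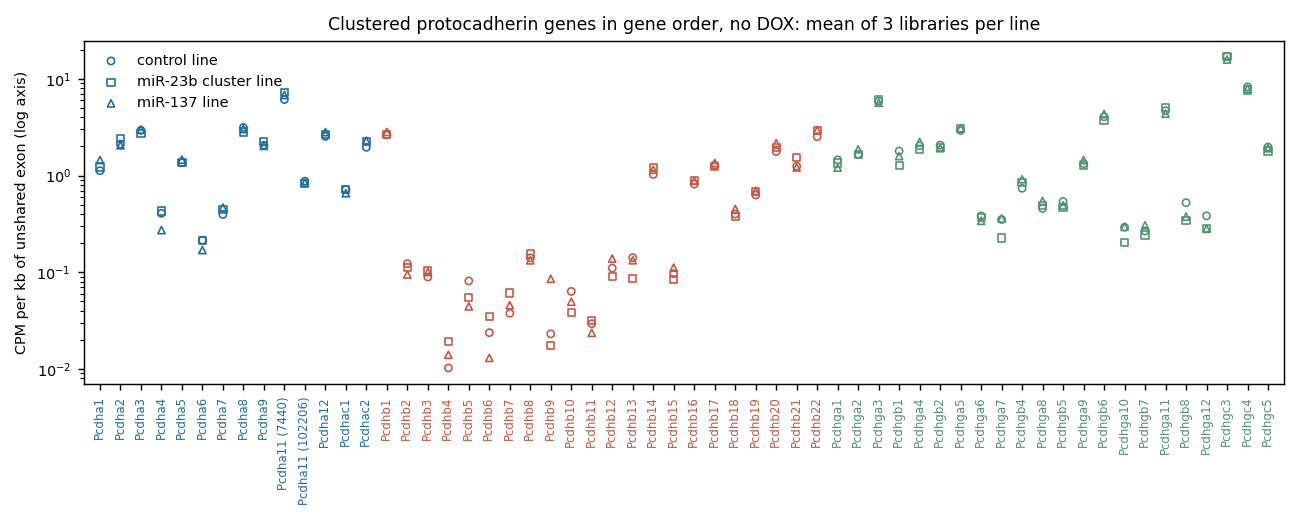
Level of each of the 58 clustered protocadherin entries with no DOX, in gene order from Pcdha (blue) through Pcdhb (red) to Pcdhg (green). The y axis is CPM per kb of unshared exon on a log axis, each mark is the mean of 3 libraries of a line (circle, control; square, miR-23b cluster; triangle, miR-137), and Pcdhb2 to Pcdhb13 with Pcdhb15 are the 13 lowest entries.

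Within the Pcdhb cluster, the higher genes lay at both ends, with the low Pcdhb15 inside the stretch at the 3′ end. Pcdhb1, at the 5′ end, and Pcdhb14 and Pcdhb16 to Pcdhb22, at the 3′ end, were the 9 genes that reached 1 CPM. The other 13, Pcdhb2 to Pcdhb13 and Pcdhb15, had group means between 0.0155 and 0.967 CPM, the highest being that of Pcdhb13 in the miR-23b cluster line on DOX. In the Pcdha cluster 12 of 14 entries reached 1 CPM, and in the Pcdhg cluster 20 of 22. The lowest gene above the threshold had its highest group mean at 1.14 CPM, against 0.967 CPM for the highest gene below it. No member was at 0 in all libraries, 7 had at least 1 library at 0, and 3 counts in a whole group correspond to between 0.0431 and 0.0588 CPM.

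All members lie on the plus strand of chromosome 18 in GRCm38. The Pcdha entries span 36930184 to 37187661, the Pcdhb genes 37264938 to 37524479, and the Pcdhg entries 37661793 to 37841873. Pcdhb18 (ENSMUSG00000048347) runs from 37489465 to 37494505 and starts 10 bases after the end of Pcdhb17. Pcdhb21 and Pcdhb22 overlap by 455 bases. The reads of Pcdha and Pcdhg genes that fall in the shared constant exons cannot be given to 1 gene, so that only 46.4% (Pcdha) and 55.3% (Pcdhg) of exon bases, as medians, belong to a single member, against 100% for Pcdhb. Sequence likeness also matters: 3.71% of the 50-base windows of Pcdhb18 occur in another gene, most of them in Pcdhb21, and the median over the Pcdha entries is 14.8%. The values of Pcdha6 and Pcdha7, with 29.2% and 25.4% of windows shared, and of Pcdha4, with 8.56% of its exon bases to itself, are uncertain for these reasons. Pcdha11 names 2 entries, ENSMUSG00000007440, where RefSeq places Pcdha10, and ENSMUSG00000102206. Antisense entries overlap several members. Gm10545 lies over Pcdha12 and the second Pcdha11 entry at group means of 0.0655 to 0.358 CPM, Gm38225 over Pcdha4 at 0.499 to 1.01 CPM, above Pcdha4 itself, and BC037039 over Pcdhgc3 at 0.257 to 0.529 CPM. Gm26672, at 0.660 to 1.37 CPM, lies over Pcdhga10, Pcdhgb7, Pcdhga11, Pcdhgb8 and Pcdhga12, of which all but Pcdhga11 had group means between 0.442 and 1.79 CPM. For these members the values are uncertain, since no source used here states whether the counting used strand, and without it reads of the 2 strands cannot be told apart.

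For the tests, 14866 genes passed a filter on low counts, 48 of the 58 members among them: 13 Pcdha, 13 Pcdhb and 22 Pcdhg. The filter's level was 0.514 CPM, which 40 members reached in all 24 libraries. The filter asks for that level in 3 libraries of any group. Pcdhb12 reached it in 4 libraries, 3 of them the miR-23b cluster line on DOX, so that it passed only through the group where it was high. Among the other low members tested, Pcdha6 (8 libraries), Pcdhb3 (4), Pcdhb8 (6) and Pcdhb13 (7) reached it in libraries of several groups. A gene is called here when the adjusted p of edgeR's quasi-likelihood test, by Benjamini-Hochberg over the 14866 genes, is below 0.05.

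The uninduced lines differed little in these genes. In the miR-137 line against the control line, both with no DOX, none of the 48 tested members was called in either direction by edgeR (1.89% of all genes were called higher and 0.814% lower). DESeq2 also called 0, while 5 had an unadjusted p below 0.05, 3 higher and 2 lower. In the miR-23b cluster line against the control line, 0 were called higher and 1 lower, where 3.59% and 2.78% of all genes were. That comparison shares libraries with the one that pointed to Pcdhb18, and 4 members had an unadjusted p below 0.05 in the higher direction, with 0 called by DESeq2. The lower gene, Pcdhgb1, measured 4.89, 5.05 and 4.18 CPM in the control line and 4.07, 3.12 and 2.75 CPM in the miR-23b cluster line. The groups did not overlap, with a log2 fold change of -0.52 ± 0.16 (SE). Without replicate 1 or 2 of the control line or replicate 2 or 3 of the miR-23b cluster line, no member was called.

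Doxycycline itself was accompanied by lower levels of Pcdha genes in the control line. After 7 d, 7 of the 13 tested Pcdha entries fell, 0 rose, and the median log2 fold change over the 13 was -0.43, against 0.01 over all genes. Over the 48 tested members, 2 were called higher and 10 lower, beside 18.5% and 19.3% of all genes. Pcdha12 changed most, from 6.83, 6.15 and 5.92 CPM with no DOX to 2.05, 2.57 and 2.44 CPM with DOX. The groups lay far apart, and the log2 fold change was -1.42 ± 0.15 (SE), adjusted p = 4.3e-10. The Pcdha11 entry ENSMUSG00000007440 fell from 15.3 ± 0.51 to 10.5 ± 1.73 CPM (SD, n = 3), a log2 fold change of -0.55 ± 0.08. Pcdha3 (log2 fold change -0.36), Pcdha8 (-0.39) and Pcdha9 (-0.48) also fell. The sum over the Pcdha cluster went from 66.4 ± 2.61 to 50.1 ± 2.97 CPM (SD, n = 3). Marker genes of other cells moved beside these values. Endothelial markers (4 genes) summed to 0.106 to 0.365 CPM with no DOX and 0.851 to 1.28 CPM with it, fibroblast markers (6) to 2.29 to 3.86 and 4.15 to 4.52 CPM, and glial markers (5) to 8.08 to 10.05 and 10.91 to 11.98 CPM. Of the 8 beta cell markers 2 rose and 2 fell, as did 2 and 2 of the 8 neuronal markers. The neuronal markers summed to 2207 to 2357 CPM with no DOX and 1985 to 2055 CPM with it. Nefm went from 1070 to 621.9 CPM, a larger drop than that of the sum, while Dcx went from 247.5 to 417.6 CPM. Leukocyte markers (5 genes, none of them tested) summed to 0.0609 to 0.212 and 0.333 to 0.508 CPM. The part of these markers in the Pcdha values was not tested.

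The Pcdhg genes did not follow: none of 22 was called lower (0 also at an unadjusted p below 0.05 and with DESeq2), and 2 rose. Pcdhgb6 went from 10.72, 10.05 and 10.47 CPM to 13.1, 13.6 and 12.9 CPM, and the groups did not overlap (log2 fold change 0.34 ± 0.08, adjusted p = 0.00039). Pcdhga5 was the other, with a log2 fold change of 0.33 ± 0.10. In the Pcdhb cluster 3 of 13 were called lower, Pcdhb18 (log2 fold change -0.53 ± 0.20), Pcdhb21 (-0.38 ± 0.15) and Pcdhb22 (-0.18 ± 0.07), and 0 higher (0 at an unadjusted p below 0.05 and with DESeq2). The share of Pcdhb genes called lower, 23.1%, was near the 19.3% of all genes. That of Pcdhg genes called higher, 9.09%, was below the 18.5% of all genes. Of the 12 calls, 6 held when any 1 library was left out: Pcdha3, Pcdha8, Pcdha9, Pcdha12, ENSMUSG00000007440 and Pcdhgb6. The others were lost without some library. These were Pcdhga5 (adjusted p = 0.078 without no DOX replicate 3), the Pcdha11 entry ENSMUSG00000102206 (0.051 without DOX replicate 1) and Pcdhac1 (0.061 to 0.18 without no DOX replicate 1 or 2 or DOX replicate 2 or 3). The 3 Pcdhb calls were weaker still, since each was lost without any of 4 or 5 of the 6 libraries: Pcdhb18 (adjusted p 0.052 to 0.13) without any but DOX replicate 3, Pcdhb22 (0.076 to 0.16) without any but no DOX replicate 3, and Pcdhb21 (0.055 to 0.16) without no DOX replicate 2 or 3 or DOX replicate 1 or 3. DESeq2 did not call them or Pcdhac1 (adjusted p 0.066 to 0.13).

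**Figure D2:**
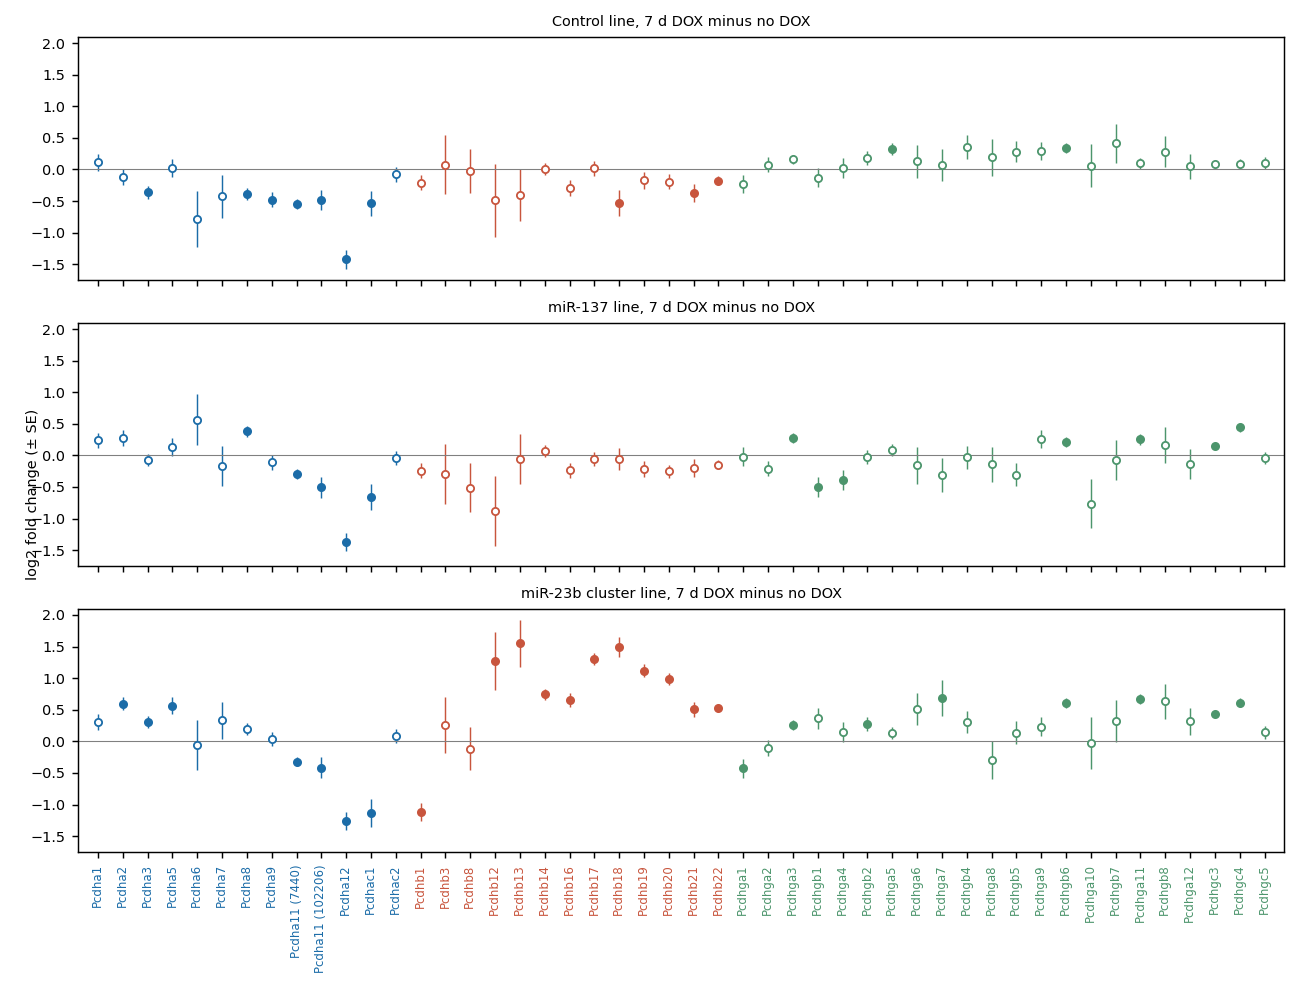
Log2 fold change of the 48 tested members after 7 d of DOX against no DOX in the same line, in gene order, for the control, miR-137 and miR-23b cluster lines from top to bottom. Points are edgeR estimates with their SE over 3 libraries a group, filled where the adjusted p is below 0.05. Pcdha12 is at -1.42, -1.37 and -1.26 in the 3 panels, while filled Pcdhb points above 0 occur in the bottom panel alone.

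In the miR-137 line, as many members rose on DOX as fell. Over the 48 tested members, 6 rose and 6 fell, beside 21% and 21.8% of all genes, so that neither count exceeded the share over all genes. The 6 that rose were Pcdha8 and 5 of 22 Pcdhg genes, a share near that background, and the 6 that fell were 4 Pcdha entries and 2 Pcdhg genes. Pcdhgc4 went from 29.5, 24.9 and 28.4 CPM to 36.4, 37.2 and 38.8 CPM, a log2 fold change of 0.44 ± 0.07 (adjusted p = 2.8e-06). All 3 libraries on DOX were above all 3 without it. Pcdha8 went from 7.22, 7.23 and 8.07 CPM to 10.2, 10.3 and 8.62 CPM, again with no overlap (log2 fold change 0.38 ± 0.09, adjusted p = 5.0e-04). Pcdhga3 (0.28), Pcdhga11 (0.26), Pcdhgb6 (0.21) and Pcdhgc3 (0.15) rose by smaller log2 amounts. Pcdha12 fell from 6.73, 7.41 and 6.79 CPM to 3.29, 2.28 and 2.57 CPM, a log2 fold change of -1.37 ± 0.14 (adjusted p = 2.2e-10). The Pcdha11 entries ENSMUSG00000007440 (-0.30) and ENSMUSG00000102206 (-0.51), Pcdhac1 (-0.66), Pcdhgb1 (-0.50) and Pcdhga4 (-0.39) also fell. Beside these values, glial markers summed to 7.66 to 9.63 CPM with no DOX and 11.06 to 12.24 CPM with it. Of 8 neuronal markers 5 rose and 3 fell, and their sum was 1944 to 1967 CPM on DOX against 2162 to 2254 CPM. Nefm went from 969.8 to 510.6 CPM, a larger drop than that of the sum, while Dcx went from 252.4 to 376.7 CPM. Of 8 beta cell markers 2 rose and 4 fell. Cela1 was called higher, at 0.692 CPM against 0.343 CPM, while the other 4 of 5 exocrine markers had 0 counts in both groups. The part of these markers in the result was not tested.

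No Pcdhb gene was called in the miR-137 line by edgeR or DESeq2, although 3 of 13 had an unadjusted p below 0.05, all lower. The 3 Pcdhb genes with a miR-137-3p heptamer had log2 fold changes of -0.24 ± 0.12 (Pcdhb16), -0.06 ± 0.18 (Pcdhb18) and -0.22 ± 0.12 (Pcdhb19). Of the 12 calls, 5 held when each library was left out in turn: Pcdha8, Pcdha12, ENSMUSG00000007440, Pcdhga3 and Pcdhgc4. The other 7 were each lost without at least 1. Without no DOX replicate 3 these were Pcdhgc3 (adjusted p = 0.070) and Pcdhgb1 (0.13), and without no DOX replicate 2 Pcdhac1 (0.13). ENSMUSG00000102206 was lost without no DOX replicate 2 or DOX replicate 3 (0.095 to 0.15), and Pcdhga11 without no DOX replicate 1 or DOX replicate 2 (0.079 to 0.13). Pcdhgb6 was lost without no DOX replicate 1 or 2 or DOX replicate 2 (0.060 to 0.067), and Pcdhga4 without replicate 1 or 3 of either group (0.059 to 0.23).

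The response of the miR-137 line was then compared with that of the control line in 1 test of the difference. It called 2 members higher and 0 lower, beside 5.9% and 4.78% of all genes, so that the share of members called, 4.17% of 48, was below that background. DESeq2 called 0 lower as well, and 1 member had an unadjusted p below 0.05 in that direction. Pcdha8 fell in the control line, from 8.13, 7.92 and 7.30 CPM to 5.86, 5.84 and 6.14 CPM, and rose in the miR-137 line, which gave a difference of 0.77 ± 0.13 on the log2 scale (adjusted p = 7.3e-05). Pcdhgc4 had a difference of 0.36 ± 0.10 (adjusted p = 0.019). This call was lost without control no DOX replicate 1, control DOX replicate 1 or miR-137 no DOX replicate 2 (adjusted p 0.055 to 0.081). For Pcdha12 the difference was 0.05 ± 0.21, and for Pcdhb18 0.47 ± 0.27 (adjusted p = 0.30).

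In the miR-23b cluster line, Pcdhb14 and Pcdhb16 to Pcdhb22, of the 3′ stretch of the Pcdhb cluster, were all higher on DOX, while Pcdhb1 was lower. Pcdhb15, which lies among them, did not pass the filter and was not tested. These libraries led to the choice of the family, so the following values describe them. Over the 48 tested members, 20 were called higher and 6 lower, beside 28.8% and 28.6% of all genes, and nothing is read from these counts. Pcdhb18 measured 1.94, 1.82 and 1.94 CPM with no DOX, 5.25, 5.05 and 5.79 CPM on DOX and 1.90, 1.74 and 1.84 CPM after withdrawal. Its 3 libraries on DOX were above all other 21 libraries, of which the highest was a miR-137 no DOX library at 3.09 CPM. Its neighbour Pcdhb17 measured 5.75, 5.50 and 6.12 CPM, then 13.28, 13.9 and 15.96 CPM, then 5.59, 5.02 and 5.59 CPM. Log2 fold changes on DOX were 1.49 ± 0.16 for Pcdhb18, 1.305 ± 0.096 for Pcdhb17, 1.12 ± 0.10 for Pcdhb19 and 0.98 ± 0.10 for Pcdhb20. Toward either end of the stretch they were smaller: 0.74 ± 0.08 for Pcdhb14, 0.65 ± 0.11 for Pcdhb16, 0.51 ± 0.12 for Pcdhb21 and 0.53 ± 0.06 for Pcdhb22.

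The sum of these 8 genes, which are all Pcdhb genes above 1 CPM other than Pcdhb1, was 61.8, 59.7 and 56.4 CPM with no DOX. It was 104.4, 105.1 and 102.8 CPM on DOX and 48.2, 45.7 and 47.5 CPM after withdrawal. They made up 85.8% of the Pcdhb sum with no DOX and 92.7% on DOX. In the control line the same sum was 52.8 ± 1.93 CPM with no DOX and 47.1 ± 1.31 CPM on DOX (SD, n = 3). The low genes Pcdhb12 and Pcdhb13 were also higher on DOX, at 0.734 and 0.967 CPM against 0.273 and 0.317 CPM, but Pcdhb12 passed the filter through that group, and its call was lost without no DOX replicate 1. Pcdhb1, whose promoter lacks a sequence element that most clustered promoters share, measured 6.98, 7.41 and 6.23 CPM with no DOX. On DOX it was at 3.19, 3.09 and 3.27 CPM, and after withdrawal at 6.33, 7.87 and 5.72 CPM. In the other 2 lines it went from 6.81 to 5.90 CPM (control) and from 7.32 to 6.20 CPM (miR-137), with log2 fold changes of -0.21 ± 0.12 and -0.24 ± 0.12 that were not called.

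**Figure D3:**
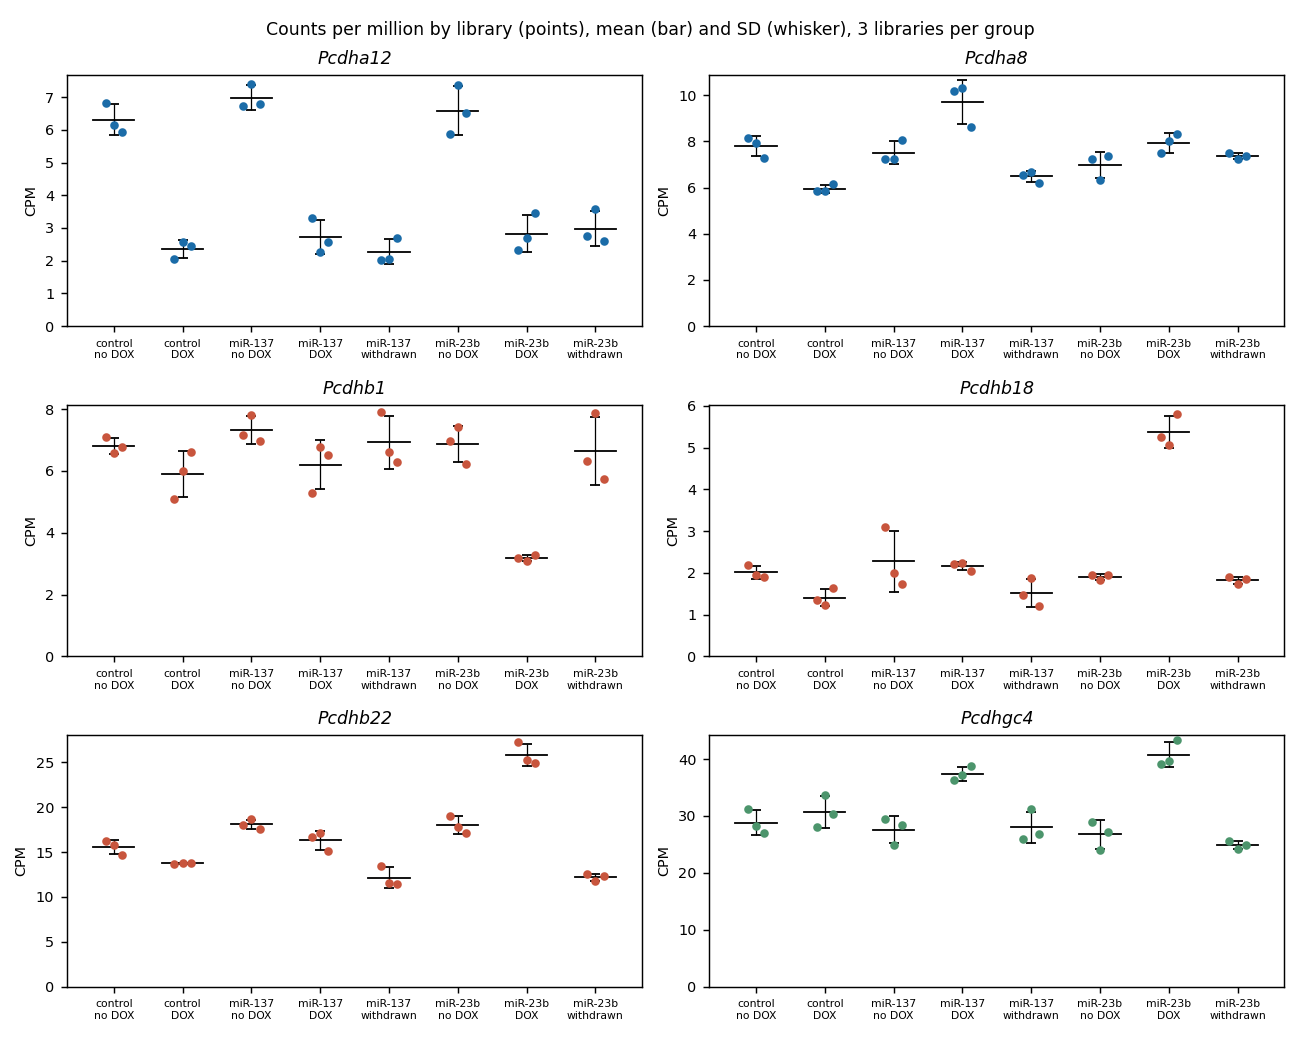
CPM of 6 members in every library (points) with the mean (bar) and SD (whisker) of the 3 libraries in each of the 8 groups. Pcdha12 is between 5.88 and 7.41 CPM in the 9 libraries never given DOX and between 2.03 and 3.59 CPM in the 15 others, whereas Pcdhb18 and Pcdhb1 stand apart only in the miR-23b cluster line on DOX.

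In the Pcdha cluster of the miR-23b cluster line, the genes went both ways on DOX. Pcdha2 was at 6.20, 5.87 and 6.06 CPM with no DOX and at 8.67, 8.97 and 9.92 CPM with it. Pcdha3 (log2 fold change 0.30) and Pcdha5 (0.56) were also higher. Pcdhac1, a C-type gene, was lower at 0.83 CPM against 1.84 CPM, and Pcdha12 lower at 2.33, 2.70 and 3.45 CPM against 5.88, 7.37 and 6.52 CPM. The sum over the Pcdha cluster was 70.33 ± 2.402 CPM before and 69.5 ± 2.88 CPM after (SD, n = 3). In the Pcdhg cluster, the C-type genes Pcdhgc3 and Pcdhgc4 were higher, the first at 79.2, 77.2 and 76.0 CPM against 57.4, 55.8 and 58.5 CPM, and the second at 40.7 ± 2.21 against 26.7 ± 2.50 CPM. Pcdhgc5, which binds GABA-A receptors, was at 9.12 ± 0.16 against 8.27 ± 0.76 CPM and was not called. Pcdhga11 (log2 fold change 0.67) and Pcdhgb6 (0.61) were higher as well.

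Against the response of the control line, 18 members were higher and 1 lower in the miR-23b cluster line, beside 18.1% and 19.4% of all genes. This test used the same libraries, and the counts are again a description. The difference in log2 response was 2.02 ± 0.26 for Pcdhb18, 1.29 ± 0.15 for Pcdhb17, 1.29 ± 0.17 for Pcdhb19 and -0.91 ± 0.18 for Pcdhb1. For Pcdha12 it was 0.16 ± 0.21. Beside these values, the beta cell markers of this line were lower on DOX than with no DOX. That comparison called 28.8% of all genes higher and 28.6% lower. In it 8 of 8 beta cell markers were called lower, and their sum was 10600 to 11230 CPM against 13720 to 13860 CPM with no DOX. Of 8 neuronal markers 5 were called higher and 3 lower, and their sum was 1913 to 1979 CPM against 2311 to 2392 CPM. Nefm went from 1051 to 325.4 CPM, a larger drop than that of the sum, while Dcx went from 287.9 to 480.7 CPM. Endothelial markers summed to 0.730 to 0.801 CPM on DOX against 0.129 to 0.420 CPM without it, with Pecam1 called higher. Leukocyte markers summed to 0.0436 to 0.431 CPM on DOX against 0 to 0.258 CPM, and fibroblast markers to 3.14 to 4.13 CPM on DOX against 2.34 to 2.46 CPM without it. The part of these markers in the protocadherin values was not tested.

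In the miR-137 line, 13 members were lower after withdrawal than after 7 d of DOX, 7 of them Pcdha entries. Against 7 d DOX, 0 rose and 13 fell, beside 14.7% and 14.8% of all genes (1 was higher at an unadjusted p below 0.05, and DESeq2 called 0 higher). Pcdhgc4 returned from 37.4 ± 1.22 to 27.97 ± 2.79 CPM (SD, n = 3), a log2 fold change of -0.42 ± 0.07, against 27.6 CPM before DOX. Pcdha8 went from 9.71 ± 0.94 to 6.49 ± 0.25 CPM (-0.59 ± 0.09), and Pcdha1 from 4.29 ± 0.20 to 2.38 ± 0.05 CPM (-0.85 ± 0.12). For Pcdha12 the change was -0.25 ± 0.17 (adjusted p = 0.31). Beside these values, glial markers summed to 8.38 to 9.67 CPM after withdrawal against 11.06 to 12.24 CPM on DOX. Neuronal markers summed to 1989 to 2096 against 1944 to 1967 CPM, with 2 of the 8 called higher and 3 lower. Nefm went from 510.6 to 694.9 CPM, a larger rise than that of the neuronal sum. The part of these markers in the result was not tested. Of the 13 calls 8 held without any single library, and 5 did not: Pcdhb18 (adjusted p 0.080 to 0.19 without DOX replicate 1 or 2 or withdrawn replicate 1 or 3), Pcdhb20 (0.094 without withdrawn replicate 3), Pcdha3 (0.078 to 0.25 without replicate 1 of either group), Pcdhga11 (0.076 to 0.12 without DOX replicate 2 or withdrawn replicate 3) and Pcdha5 (0.059 to 0.066 without DOX replicate 3 or withdrawn replicate 1).

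Set against the never induced cultures of the miR-137 line, 16 of 48 tested members were lower after withdrawal and 0 higher, beside 21.7% and 21.6% of all genes. One was higher at an unadjusted p below 0.05, and 0 by DESeq2. These were 9 of 13 Pcdha entries, 6 of 13 Pcdhb genes and 1 of 22 Pcdhg genes, with median log2 fold changes of -0.54 (Pcdha), -0.47 (Pcdhb) and 0.00 (Pcdhg) over the tested genes of each cluster, against 0.01 over all genes. Pcdha12 measured 2.03, 2.07 and 2.71 CPM, still apart from its 6.73 to 7.41 CPM with no DOX (log2 fold change -1.62 ± 0.14, adjusted p = 2.9e-12). Pcdhac1 measured 0.993, 0.853 and 0.959 CPM against 1.65, 2.00 and 1.39 CPM (-0.86 ± 0.21, adjusted p = 0.00076). In the Pcdhb cluster, Pcdhb22 fell from 18.03, 18.65 and 17.6 CPM to 13.5, 11.5 and 11.4 CPM (-0.58 ± 0.07, adjusted p = 1.0e-08), and the groups did not overlap. Pcdhb21 (-0.73), Pcdhb20 (-0.64), Pcdhb19 (-0.49) and Pcdhb16 (-0.47) also fell. Pcdhb14 and Pcdhb17, which lie in the same stretch, had log2 fold changes of 0.00 ± 0.09 and -0.20 ± 0.11 and were not called. Pcdhb18 fell by 0.57 on the log2 scale, but the groups overlapped, and the call was lost without no DOX replicate 1 (3.09 CPM) or withdrawn replicate 3 (adjusted p 0.090 to 0.26). Also lost without some library were Pcdha5 (0.082 to 0.21 without no DOX replicate 1 or 2 or withdrawn replicate 1 or 3), Pcdha7 (0.071 to 0.10 without no DOX replicate 1 or 3 or withdrawn replicate 1) and Pcdhga4 (0.075 without withdrawn replicate 3). Marker sums moved in this comparison too: neuronal markers were at 1989 to 2096 CPM after withdrawal against 2162 to 2254 CPM with no DOX. Of these 8 neuronal markers 3 rose and 4 fell, and Nefm went from 969.8 to 694.9 CPM, a larger drop than that of the sum. The sum of the 5 exocrine markers was at 0.648 to 0.808 against 0.220 to 0.446 CPM. This sum was Cela1 alone, which was called higher, since the other 4 had 0 counts in both groups. Of the 8 beta cell markers 3 rose and 3 fell. The part of these markers in the protocadherin values was not tested. No control culture was withdrawn. The cultures with no DOX had 7 d without it, while the withdrawn cultures had 7 d with DOX and then 7 d without it. Time in culture and earlier DOX therefore cannot be told apart.

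**Figure D4:**
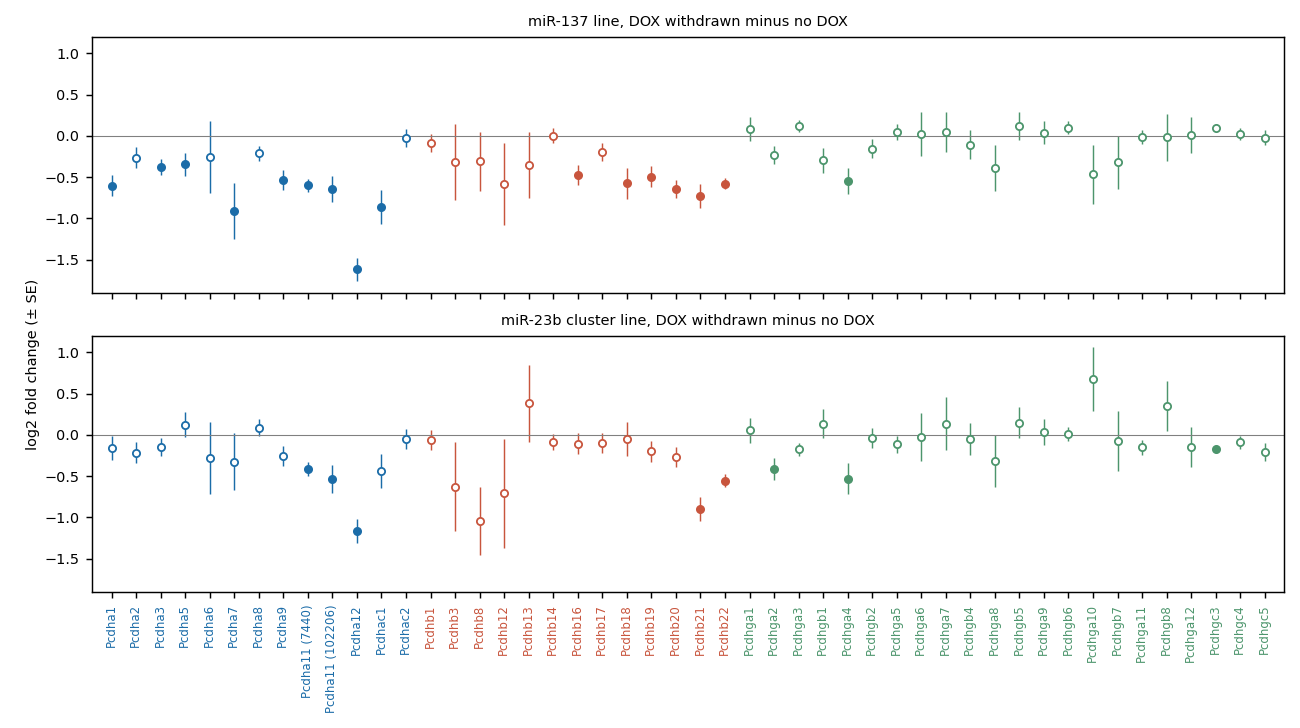
Log2 fold change of the 48 tested members after withdrawal of DOX against cultures of the same line never given DOX, in gene order, in the miR-137 line (top) and the miR-23b cluster line (bottom). Points are edgeR estimates with their SE over 3 libraries a group, filled where the adjusted p is below 0.05, and Pcdha12 is lowest of the called Pcdha entries in both panels at -1.62 and -1.16.

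In the miR-23b cluster line, the genes that had been higher on DOX were back near or below their starting level after withdrawal. These comparisons share libraries with the one that pointed to Pcdhb18 and are described without p-values. Against 7 d DOX, 24 members were called lower and 3 higher, beside 25.8% and 26.4% of all genes. The 3 higher were Pcdhb1 (log2 fold change 1.06 ± 0.14), Pcdhac1 (0.70 ± 0.24) and Pcdhga1 (0.48 ± 0.16), each of which had been lower on DOX. The call of Pcdhac1 was lost without withdrawn replicate 1 and that of Pcdhga1 without DOX replicate 1. Against never induced cultures, 8 were called lower and 0 higher, beside 20.6% and 19.2% of all genes (0 higher also at an unadjusted p below 0.05 and with DESeq2). Pcdhb18 was at -0.05 ± 0.20 and Pcdhb1 at -0.06 ± 0.12 on the log2 scale in that comparison. Pcdhb21 and Pcdhb22 were below their start, at 4.38, 3.04 and 3.12 CPM against 6.40, 7.37 and 6.00 CPM for the first and 12.5, 11.8 and 12.3 CPM against 19.1, 17.8 and 17.2 CPM for the second. Pcdha12 was at 2.74, 3.59 and 2.61 CPM, a log2 fold change of -1.16 ± 0.15. Of the 8 calls 4 held when any 1 library was left out: ENSMUSG00000007440, Pcdha12, Pcdhb21 and Pcdhb22. Without withdrawn replicate 1, 5 of the 8 were called, and Pcdhga4 was lost without no DOX replicate 2 or withdrawn replicate 3. Beta cell markers summed to 15750 to 16140 CPM after withdrawal, against 13720 to 13860 CPM with no DOX and 10600 to 11230 CPM on DOX. Against no DOX, 2 of the 8 were called higher and 3 lower. Ins2 was at 10810 against 7834 CPM with no DOX, while Iapp was at 2002 against 3003 CPM. Neuronal markers were at 2111 to 2125 CPM against 2311 to 2392 CPM with no DOX, although 4 of the 8 were called higher and 1 lower. Nefm went from 1051 to 639.5 CPM, a larger drop than that of the sum. Fibroblast markers were at 2.80 to 4.09 against 2.34 to 2.46 CPM. The sum of the 5 exocrine markers was at 0.929 to 1.21 against 0.140 to 0.457 CPM. It was nearly all Cela1 (means of 1.03 and 0.270 CPM), since 4 of the 5 had 0 counts after withdrawal and 3 with no DOX. The part of these markers in the withdrawn values was not tested.

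The withdrawn cultures of the 2 microRNA lines, which use no library of the miR-23b cluster's induction, differed in few members. Of 48, 2 were higher and 2 lower in the miR-23b cluster line, beside 6.2% and 6.53% of all genes. Pcdhgb6 was lower, at 8.75, 10.04 and 10.17 CPM against 12.3, 12.2 and 11.3 CPM (log2 fold change -0.31 ± 0.08, adjusted p = 0.0060), as was Pcdhgc3 (-0.18 ± 0.05). The higher were Pcdha9 (0.42 ± 0.13) and ENSMUSG00000007440 (0.26 ± 0.09). None of the 4 calls held throughout: without withdrawn replicate 1 of the miR-23b cluster line, Pcdhgb6 (adjusted p = 0.10) and Pcdhgc3 (0.13) were lost, Pcdha9 was lost without any of 5 of the 6 libraries (0.053 to 0.071), the exception being replicate 2 of the miR-137 line, and ENSMUSG00000007440 without replicate 2 or 3 of either line (0.062 to 0.16). For Pcdhb18 the difference was 0.27 ± 0.20 (adjusted p = 0.44). Beta cell markers summed to 15750 to 16140 CPM in the withdrawn miR-23b cluster line and 14000 to 14580 CPM in the withdrawn miR-137 line. Of the 8, 1 was called higher and 2 lower in the miR-23b cluster line. Ins2 was at 10810 against 8809 CPM, while Ins1 was at 2292 against 2541 CPM. Neuronal markers summed to 2111 to 2125 and 1989 to 2096 CPM, with 5 of 8 called higher and 0 lower. The part of these markers in these differences was not tested.

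Pcdha12 thus had the same order in every line. Its 9 libraries with no DOX all lay above its 15 libraries on or after DOX. The 3 responses, each from separate libraries, were -1.42, -1.37 and -1.26 on the log2 scale. The differences from the control line's response were 0.05 ± 0.21 (miR-137) and 0.16 ± 0.21 (miR-23b cluster). Whether DOX or handling shared by the cultures without it goes with Pcdha12 cannot be told apart, since the labels name no batch.

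Related genes were read from lists chosen by function, with earlier results of these data known. The counts below stand beside the shares of all genes called higher and lower, 18.5% and 19.3% in the control line, 21% and 21.8% in the miR-137 line and 28.8% and 28.6% in the miR-23b cluster line. Of 12 protocadherins outside the clusters 11 were tested. In the control line on DOX, Pcdh1 (log2 fold change 0.27) and Pcdh8 (0.31) rose, and Pcdh7 (-0.77), Pcdh10 (-0.28) and Pcdh17 (-0.11) fell. In the miR-137 line Pcdh1 (0.81) and Pcdh8 (0.46) rose, and Pcdh15 (-0.93), Pcdh7 (-0.61), Pcdh10 (-0.26) and Pcdh17 (-0.14) fell. The median over the 11 was -0.01 in the control line and -0.16 in the miR-137 line. The response of Pcdh1 was larger in the miR-137 line by 0.54 ± 0.07 (adjusted p = 2.8e-06). In the miR-23b cluster line Pcdh1 (0.97), Pcdh9 (0.59), Pcdh11x (0.63) and Pcdh20 (0.27) were higher, and Pcdh15 (-1.14), Pcdh17 (-0.46) and Pcdh7 (-0.40) lower. Pcdh18 and Pcdh19 were not called in any of the 3 responses. Pcdh10 was the most abundant of the 12 at 183 to 264 CPM, and Pcdh12 the least at 0.0158 to 0.116 CPM.

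Of 28 regulators of chromatin at the clusters, all tested, 10 rose and 2 fell in the control line on DOX, and 7 rose and 5 fell in the miR-137 line. Over all genes 18.5% rose and 19.3% fell in the control line and 21% and 21.8% in the miR-137 line, and the miR-137 counts were near those shares. The median log2 fold changes were 0.06 and 0.05. Ctcf, whose protein marks the ends of the loops that bring an enhancer to a clustered promoter, rose by 0.20 ± 0.03 in the control line and 0.13 ± 0.03 in the miR-137 line. Tet1, which starts the removal of DNA methylation, had the largest of the called changes in both, 0.48 ± 0.07 and 0.50 ± 0.06. In the miR-23b cluster line 13 were higher and 2 lower, with Tet1 at 1.10 ± 0.06 and Dnmt3b, a DNA methyltransferase, at 0.56 ± 0.11. Smchd1, a repressor of the clusters, rose in the control line (0.10 ± 0.03).

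Among 22 genes for cleavage of protocadherins and for signalling from their cytoplasmic parts, 1 rose and 4 fell in the control line, and 5 rose and 3 fell in the miR-137 line, with medians of 0.01 in both. The 4 that fell in the control line and the 5 that rose in the miR-137 line were near the shares over all genes, 19.3% and 21%. Cyfip2, a part of the WAVE complex that drives actin branching, fell in both (-0.41 and -0.32), and Marcks rose in both (0.19 and 0.36). In the miR-23b cluster line 9 were higher and 9 lower. Ret, a receptor kinase found in complexes with protocadherins, was at -0.86 ± 0.10 there, and Ptk2b, a kinase that protocadherin tails inhibit, at 0.55 ± 0.11, against -0.32 ± 0.12 in the control line.

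Genes flanking the clusters or lying among them were listed too. Of 21, 19 were tested: 5 rose and 3 fell in the control line, 7 rose and 4 fell in the miR-137 line, and 10 were higher and 5 lower in the miR-23b cluster line. Over all genes 18.5% rose and 19.3% fell in the control line and 21% and 21.8% in the miR-137 line, so that the 3 and 4 that fell were near the background. Gnpda1, an enzyme of amino sugar metabolism, fell in the control and miR-137 lines by 0.81 and 0.79 on the log2 scale, and it was at -1.39 ± 0.06 in the miR-23b cluster line. Rell2 had log2 fold changes of -0.64, -0.83 and -0.77 in the same order. Dnd1, an RNA-binding protein of germ cells, had 1.43, 0.81 and 1.04. The median log2 fold changes of the 19 genes were 0.05, 0.06 and 0.11.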

How the data were processed

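Gene counts for 24 libraries were taken as the authors deposited them, 1 table of raw counts per library with Ensembl gene IDs. The submitters' processing notes name STAR 2.4.0g, cutadapt 1.3, RSEM 1.2.19, HTSeq 0.6.1, featureCounts and GRCm38 (mm10). No source used here says which tool made the counts or whether strand was used. Rows for reads given to no gene were left out of library sizes: alignments that are not unique made up 25.4 to 27.7% of each table's total, reads without a feature 9.62 to 12.1% and ambiguous reads 0.741 to 0.779%. Such discarded reads lower the counts of near-identical and overlapping genes. Symbols and positions came from GENCODE M21.

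edgeR 4.0.16 (R 4.3.3) was run with filterByExpr, TMM scaling, 1 model of 8 group means and the quasi-likelihood test, and Benjamini-Hochberg adjustment over 14866 genes, threshold 0.05. CPM are TMM-scaled. A log2 fold change's SE is its size divided by the root of the F statistic. The code was tested on simulated data. Alternatives were DESeq2 1.42.0, its size factors in edgeR, no filter, only the groups compared, the replicate number as a block, and each library left out. Gene counts per library were 15759849 to 24144737, and members at or below 1 CPM rest on the fewest counts. Nothing says that wells came from separate cultures, so p-values measure the spread between libraries, which may be technical, and counting limits cover counting error only. Members and lists were chosen with earlier results of these data known. Named are members reaching 1 CPM, Pcdhb18, low members by level or range, non-clustered protocadherins at 1 CPM and, of each other list, up to 4 called genes with the largest change a comparison; Ctcf, Smchd1, Pcdh12, Pcdhb12 and Pcdhb13 were added after their values were seen.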

Additional observations from a re-analysis of the deposited data

Results flagged for a closer look

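The fitted difference between the DOX responses of the miR-23b cluster line and the control line passed the threshold in 18 of the members above 1 CPM. Over all 48 tested members, Pcdhb13 included, 18 were called higher and 1 lower, 39.6% in all. The shares over all genes were 18.1% higher and 19.4% lower. The family was chosen from these same libraries, so the values are a description and no test of whether the responses differ. On the log2 scale (miR-23b cluster line minus control line) the differences were 2.02 for Pcdhb18, 1.29 for Pcdhb17, 1.29 for Pcdhb19, 1.18 for Pcdhb20, 0.95 for Pcdhb16, 0.88 for Pcdhb21, 0.74 for Pcdhb14, 0.705 for Pcdhb22 and -0.91 for Pcdhb1. In the Pcdha cluster they were 0.72 for Pcdha2, 0.66 for Pcdha3, 0.58 for Pcdha8, 0.54 for Pcdha5 and 0.51 for Pcdha9, and in the Pcdhg cluster 0.57 for Pcdhga11, 0.52 for Pcdhgc4, 0.36 for Pcdhgc3 and 0.27 for Pcdhgb6. Pcdhgb6 was lost without any of 8 of the 12 libraries, and Pcdha5 without any of 5 of the 12.

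Between the miR-137 line and the control line, the same test called Pcdha8 with a difference of 0.77 and Pcdhgc4 with 0.36 on the log2 scale. These were 4.17% of 48 members tested, beside 5.9% of all genes called higher and 4.78% called lower.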

How the results depend on the processing

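Of 135 calls of named members, 1440 of 1605 recomputed values stayed called, 165 lost the call and 0 changed sign. Counts of members called that moved by over 1.5 times were few. Between the lines with no DOX, the miR-23b cluster line had 1 call, 0 with DESeq2, 2 with the replicate block and 2 with only the groups compared, and the miR-137 line 0 calls and 1 with the replicate block. Between the withdrawn lines, 4 calls became 2 with DESeq2 and 2 with no filter. With 1 library left out, calls ran from 1 to 3 (2 with all) for the difference between the miR-137 and control responses, where leaving out control no DOX replicate 1, control DOX replicate 1 or miR-137 no DOX replicate 2 lost Pcdhgc4. They ran from 5 to 10 (8) for the miR-23b cluster line withdrawn against no DOX, from 0 to 1 (1) for that line against control with no DOX and from 1 to 4 (4) between the withdrawn lines, with the lowest without withdrawn replicate 1 of the miR-23b cluster line in the first and last. The replicate block rests on no pairing: same-numbered libraries of 84 pairs had correlations from -0.07 to 0.18, and 0 of 28 pairs of groups had all above 0.1. The cause was not tested. Depth limits members at or below 1 CPM most.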
